A study of Mus musculus with 8 samples.

Results

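The genes described here copy DNA and supply its building blocks. They comprise 46 listed members: the factors that license and fire replication origins, the DNA polymerases with their clamp and clamp loader, the proteins that join and check new strands, chromatin assembly factors, enzymes of deoxynucleotide supply, and the regulator E2f1. The members were chosen by name, with earlier results of these data known. Shares of all genes set beside their counts are thus a description, not a test. Each member is read from whichever of its probe sets was brightest in mean log2 signal over the 8 arrays. Of the 46, 44 had a probe set that listed that gene alone, out of 12393 genes so covered, and all 44 passed the filter on low values with 8430 genes in all. Gins2 and Chaf1a had none and are not analysed here.

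RNA came from splenic T cells of C57Bl/6 mice, either wild type or knockout for Gfi1, which encodes a zinc finger repressor of transcription. A pan-T kit on magnetic columns enriched them, and they were taken at 0 h, untreated, or after 4, 8 or 24 h of culture with antibodies against CD3 and CD28 at 2 µg/ml, which stand in for antigen and costimulation. Each genotype and time was measured on 1 Affymetrix MOE430A_2.0 array, with a single source number in the titles of each genotype, so differences between genotypes have no replicate check and no p-value. No array holds cells cultured without the antibodies, so stimulation and time in culture cannot be told apart. The age of the mice and the number of animals behind a source number were not stated in the labels.

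Gfi1 itself gave signals of 882, 6359, 5259 and 3966 at 0, 4, 8 and 24 h in the arrays labelled wild type and 2316, 5979, 6459 and 9885 in those labelled knockout. The labels do not say whether the deletion covers the sequence of this probe set, so it is no check on genotype, and the names used from here on are WT-labelled and KO-labelled arrays. Cell type markers differed between the arrays before any replication gene is considered. T cell markers had a summed signal of 66664 to 92529 in the WT-labelled arrays and of 25324 to 31277 in the KO-labelled ones at 0, 4 and 8 h, then 61948 at 24 h. Of the 12 markers, 10, 11, 10 and 1 were under the WT-labelled level by 2-fold or more at 0, 4, 8 and 24 h. Of all genes 6.79%, 6.56%, 6.69% and 5.05% were. Thy1 went the other way at 24 h by more than 2-fold, with 3476 in the WT-labelled and 10530 in the KO-labelled array. At 4 and 8 h Thy1 was 0.19 and 0.22 higher in the KO-labelled arrays on the log2 scale. Markers of granulocyte precursors summed to 1006 to 16918 in the WT-labelled arrays, lowest at 24 h, and to 154919, 177056, 120499 and 6688 in the KO-labelled ones, with 10, 10, 10 and 9 of 13 at least 2-fold higher there. Of all genes, 8.0%, 11.7%, 10.7% and 9.15% were higher by that much. Ngp, Camp and Ltf were the lower of the pair in the KO-labelled array at 0 and 4 h, by less than 2-fold. In the WT-labelled 24 h array 12 of these 13 were at or under the floor of 141.88, the signal to which lower values were set before log2. The summed signals were taken without this floor. Monocyte and macrophage markers summed to 1930 to 9128 in the WT-labelled and 21516 to 60493 in the KO-labelled arrays. Of these 14, 7, 10, 11 and 9 were at least 2-fold higher in the latter and 0 lower by as much. Adgre1 and C1qb were the lower of the pair there at 0 h. The 5 red cell markers tested went from 21537 and 25001 at 0 h to 978 to 2677 at later times. Car1 alone gave 13575 and 14165 of the 0 h sums. The part of these other cells in the results below was not tested. In bulk RNA, fewer cells of a type and less RNA per cell cannot be told apart.

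A resting T cell holds little of the replication machinery. In late G1, transcription factors of the E2F family, released from the retinoblastoma pocket proteins, activate genes for origin licensing, fork proteins and deoxynucleotide synthesis, and DNA synthesis in S phase follows. Activated T cells are known for a long first G1 before their first division, after which they divide rapidly.

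Promoters of the members were searched for E2F-like letters. The letters searched were TTTCCCGC, TTTGGCGC, TTTCGCGC and TTTGCCGC on both strands, where matches may overlap, in the 300 bases from 250 before to 50 after each RefSeq start (GRCm38.p6). Promoters were listed for 38 of the 44 members. The letters were in 14 of the 45 member promoters (31.1%) and in 3.38% of the 12566 promoters of genes on the array. Members with the letters were Cdc6, Cdca7, Lig1, Mcm3, Mcm5, Mcm6, Mcm7, Msh6, Orc1, Pola1, Pold1, Pole2, Rfc3 and Uhrf1. The letters CCAAT were in 57.8% of member promoters and 37.1% of those of array genes, and the cell cycle homology region (TTTGAA or TTCGAA) in 13.3% and 14.6%. In promoters of 17 mitosis genes these shares were 5.56% for the E2F letters, 94.4% for CCAAT and 83.3% for TTTGAA or TTCGAA. A match is a description of the sequence, not evidence of binding.

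The 6 members with the letters before the start and the lowest 24 h values in the KO-labelled array relative to the WT-labelled one are shown, as examples of what part of the members share in sequence. Each is the 250 bases before the start, written 5′ to 3′ on the strand of the gene, with the E2F letters in capitals. The regions are chr8:75109259-75109508 (plus strand) for Mcm5, chr2:72475969-72476218 (plus) for Cdca7, chr5:138171884-138172133 (minus) for Mcm7, chr17:56304063-56304312 (plus) for Uhrf1, chr11:98907901-98908150 (plus) for Cdc6 and chr4:108579204-108579453 (plus) for Orc1. In Mcm5 a pair of matches on opposite strands overlap, beginning 153 and 149 bases before the start. The match begins 27 bases before the start in Orc1, 71 in Cdca7, 138 in Cdc6, 165 in Mcm7 and 185 in Uhrf1.
Mcm5: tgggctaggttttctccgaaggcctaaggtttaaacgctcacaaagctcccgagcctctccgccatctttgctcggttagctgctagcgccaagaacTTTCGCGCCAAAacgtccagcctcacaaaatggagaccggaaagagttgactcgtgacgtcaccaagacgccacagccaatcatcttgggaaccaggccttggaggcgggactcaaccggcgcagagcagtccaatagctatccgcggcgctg
Cdca7: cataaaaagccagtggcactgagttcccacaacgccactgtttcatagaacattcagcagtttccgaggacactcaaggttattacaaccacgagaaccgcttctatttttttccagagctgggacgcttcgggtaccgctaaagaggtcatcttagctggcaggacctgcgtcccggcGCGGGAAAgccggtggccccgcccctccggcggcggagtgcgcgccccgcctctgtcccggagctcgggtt
Mcm7: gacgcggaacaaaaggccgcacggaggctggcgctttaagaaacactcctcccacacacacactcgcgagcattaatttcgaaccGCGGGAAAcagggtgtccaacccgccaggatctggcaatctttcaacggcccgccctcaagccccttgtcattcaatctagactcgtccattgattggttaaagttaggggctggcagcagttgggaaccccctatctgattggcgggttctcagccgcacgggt
Uhrf1: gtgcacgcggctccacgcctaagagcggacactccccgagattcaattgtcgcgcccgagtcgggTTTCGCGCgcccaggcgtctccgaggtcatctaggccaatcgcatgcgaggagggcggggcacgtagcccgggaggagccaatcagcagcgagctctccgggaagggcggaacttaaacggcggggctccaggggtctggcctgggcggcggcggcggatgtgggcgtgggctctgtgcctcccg
Cdc6: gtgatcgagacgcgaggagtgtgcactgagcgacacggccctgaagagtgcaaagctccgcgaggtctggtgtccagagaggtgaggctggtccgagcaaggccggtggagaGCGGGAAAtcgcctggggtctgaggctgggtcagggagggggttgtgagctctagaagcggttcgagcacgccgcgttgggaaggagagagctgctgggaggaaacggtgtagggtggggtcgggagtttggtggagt
Orc1: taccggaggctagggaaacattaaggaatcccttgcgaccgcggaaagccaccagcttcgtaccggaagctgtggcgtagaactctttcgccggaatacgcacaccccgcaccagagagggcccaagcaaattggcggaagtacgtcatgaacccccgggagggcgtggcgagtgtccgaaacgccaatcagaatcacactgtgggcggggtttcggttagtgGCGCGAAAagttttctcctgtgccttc

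At 24 h all 44 measured members were lower in the KO-labelled array than in its WT-labelled counterpart, where 45.7% of all genes tested were. Of the 44, 33 were at least 2-fold lower and 0 at least 2-fold higher, beside 5.05% and 9.15% of all genes. The median difference was -1.50 on the log2 scale (SD over members 0.59), which is 2.83-fold lower, where the median over all genes was 0.00 (SD over genes 0.78). The members ran from Ung, 7.63-fold lower, to Rfc2, 1.1-fold lower. Earlier the members leaned the other way. At 0, 4 and 8 h 17, 21 and 15 of the 44 were at least 2-fold higher in the KO-labelled array and 0 at least 2-fold lower, where 8.0%, 11.7% and 10.7% of all genes were higher by that much and 6.79%, 6.56% and 6.69% lower. By any amount 41, 37 and 35 members were higher (45.3%, 45.6% and 40.9% of all genes). Their medians at these times were 0.75, 0.98 and 0.51. Both 2-fold higher or more at 4 h and 2-fold lower or more at 24 h were 17 members, against 0.783% of all genes. Higher at each of 0, 4 and 8 h and lower at 24 h, by any amount, were 33 (8.61% of all genes).

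**Figure D1:**
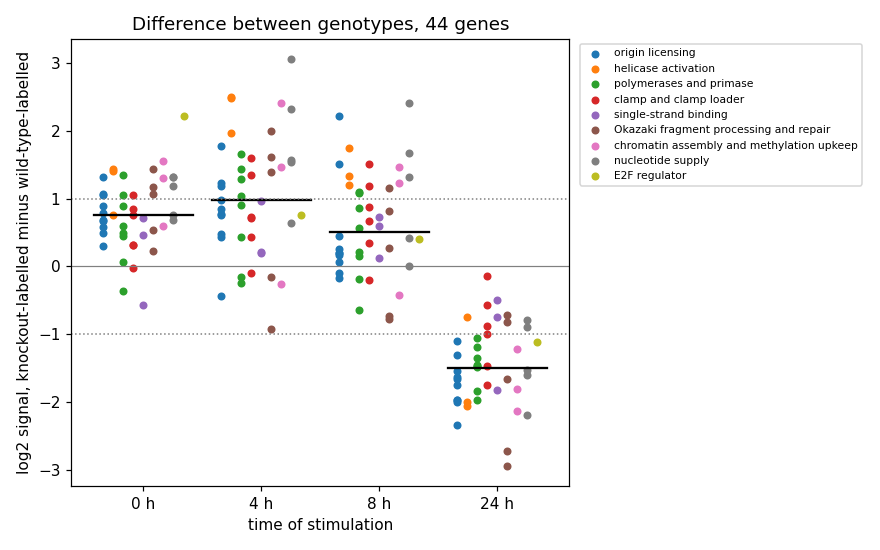
Difference in log2 signal, KO-labelled minus WT-labelled array, for the 44 genes (1 point each, coloured by role) at 0, 4, 8 and 24 h; black bars are medians and dotted lines mark 2-fold. Most points lie above 0 at 0, 4 and 8 h, and all lie below 0 at 24 h.

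Within each genotype the levels took different courses. In the WT-labelled arrays 42 of 44 members were highest at 24 h, against 24.3% of all genes, and 21 were lowest at 4 h and 21 at 8 h; Rpa1 and Tk1 were highest at 0 h. Against 0 h, 18 members were at least 2-fold lower at 4 h and 0 higher (11.2% and 6.24% of all genes), and the median was -0.87. At 8 h 19 were lower and 0 higher by that much (14.2% and 8.32% of all genes), and at 24 h 18 were higher and 0 lower (7.41% and 13.8%). Between 8 and 24 h all 44 were higher at the later time (44.4% of all genes), 36 of them at least 2-fold and 0 lower by as much (5.09% and 6.69%), with a median of 1.72. In the KO-labelled arrays 41 of 44 were highest at 0 h, against 38.5% of all genes, and 30 were lowest at 24 h. The exceptions were Cdc45 and Pcna, highest at 4 h, and Rfc3, highest at 8 h. Medians against 0 h were -0.56, -1.04 and -1.41 at 4, 8 and 24 h there, and 7, 23 and 31 members were 2-fold lower or more (5.5%, 9.77% and 14.1% of all genes). None was 2-fold higher at these times (5.35%, 6.79% and 9.06%), and at 24 h all 44 were lower by any amount (51.9%). Between 8 and 24 h 30 were lower and 13 higher by any amount (43.2% and 51.9% of all genes), and 6 were 2-fold lower or more and 0 higher by as much (7.28% and 6.14% of all genes), with a median of -0.47. For 4 members this came with a level 2-fold higher or more in the WT-labelled array (0.534% of all genes). The comparisons with 0 h share the 0 h arrays.

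**Figure D2:**
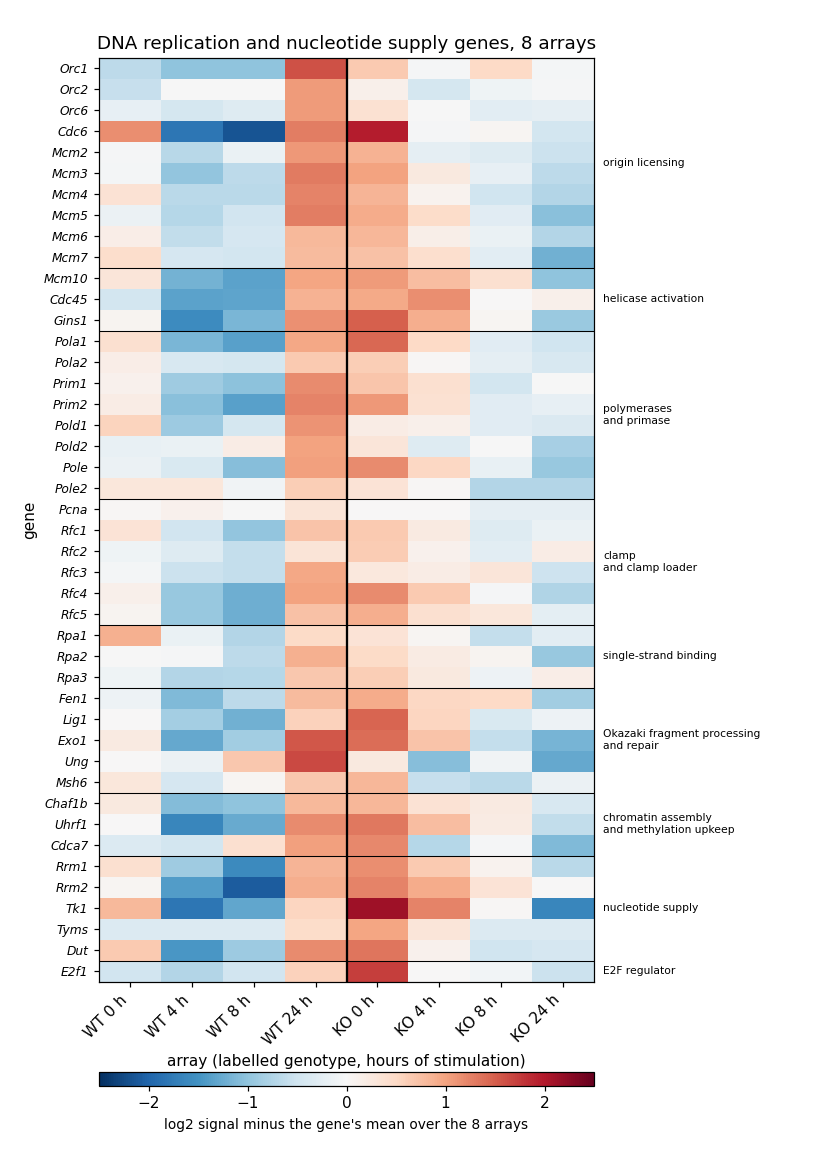
Log2 signal of each of the 44 genes minus that gene's own mean over the 8 arrays (colour), with signals under the floor set to it; columns are the WT-labelled (WT) and KO-labelled (KO) arrays and rows are grouped by role. The WT 24 h and KO 0 h columns are mostly red, and the WT 4 h and 8 h and KO 24 h columns mostly blue.

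Origin licensing genes load the helicase onto DNA before S phase. By the probe sets used, all 10 were at least 2-fold lower in the KO-labelled 24 h array (list median -1.69). Over all their probe sets the 24 h differences ran from -1.43 to -0.73 for Orc2 and from -1.96 to -0.02 for Mcm3 on the log2 scale. The origin recognition complex subunit Orc1 gave 182, 129, 111 and 868 at 0, 4, 8 and 24 h in the WT-labelled arrays and 451, 280, 405 and 276 in the KO-labelled ones. Its WT-labelled signals at 4 and 8 h were under the floor, so that its 8 h difference of 2.85-fold is a lower bound. Orc1 was thus the higher of the pair at 0, 4 and 8 h in the KO-labelled array, and 3.14-fold lower at 24 h. The other recognition subunits differed less at 24 h, by 2.13-fold for Orc2 and 2.46-fold for Orc6, and Orc2 was lower in the KO-labelled array at 4 h too (-0.44).

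Cdc6, the loader that recruits the helicase to the recognition complex, spanned the widest range of the WT-labelled course. Its signals were 1571, 201, 157 and 1691 there, and 2722, 683, 726 and 507 in the KO-labelled arrays. The WT-labelled 24 h level was thus 10.7 times the 8 h level and near the 0 h level. Relative to the WT-labelled array the KO-labelled signal was 3.41-fold and 4.61-fold higher at 4 and 8 h and 3.34-fold lower at 24 h. The WT-labelled signals of 201 and 157 at 4 and 8 h were near the floor. With a floor at the 60th percentile the 4 h difference was 0.52 in place of 1.77 on the log2 scale.

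The Mcm2 to Mcm7 proteins form the ring of the replicative helicase, and all 6 of their genes were lower at 24 h. Mcm5 gave 1964, 1325, 1566 and 5283 in the WT-labelled and 4125, 3010, 1801 and 1050 in the KO-labelled arrays. At 24 h its KO-labelled signal was the lowest of the 8 and 5.03-fold under the WT-labelled one. That was the widest gap of the ring genes by the probe sets used. The probe sets of Mcm7 ran from -2.4 to -1.76 on the log2 scale then, beside -2.33 for Mcm5, so this rank depends on the probe set. Mcm3 gave 2705, 1404, 1765 and 6826 against 5591, 3294, 2412 and 1758, and Mcm2 gave 2771, 1733, 2514 and 5995 against 5143, 2409, 2236 and 1947. For these genes too, the KO-labelled signals went down from each time to the next. The other differences at 24 h were 3.91-fold for Mcm4, 2.91-fold for Mcm6 and 3.98-fold for Mcm7. At 8 h the 6 ring genes were within 1.37-fold of the WT-labelled level or less by these probe sets. Other probe sets gave a wider range then, from -0.61 to 1.48 for Mcm3, and differed in sign for Mcm2 (-0.17 and 0.18).

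Factors that turn the loaded ring into an active helicase were higher early. All 3 measured, Mcm10, Cdc45 and Gins1, were at least 2-fold higher in the KO-labelled arrays at 4 and 8 h, with list medians of 2.48 and 1.33. Gins1, a subunit of the GINS complex, gave 565, 182, 244 and 1196 in the WT-labelled and 1523, 1018, 560 and 287 in the KO-labelled arrays. It was 5.58-fold higher at 4 h and 4.17-fold lower at 24 h in the latter. Mcm10, which helps start unwinding, gave 690, 245, 219 and 1099 against 1160, 953, 739 and 278. Cdc45, the helicase cofactor, gave 414, 224, 226 and 1037 against 1097, 1270, 568 and 619. Its difference at 24 h, 1.67-fold, was the only 1 of the 3 under 2-fold.

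All 8 genes of the polymerases and primase were at least 2-fold lower in the KO-labelled 24 h array, with a median of -1.45 and a narrow range of -1.97 to -1.05. Pola1, the catalytic subunit of polymerase alpha that begins each strand, gave 903, 310, 269 and 1343 in the WT-labelled and 1866, 970, 567 and 488 in the KO-labelled arrays. Pole, the catalytic subunit of the leading-strand polymerase epsilon, gave 456, 387, 244 and 1032 against 1158, 725, 444 and 264. Both were higher in the KO-labelled array at 0, 4 and 8 h and lower at 24 h. The primase genes Prim1 and Prim2 were 2.44-fold and 2.69-fold higher at 4 h and 2.28-fold and 2.73-fold lower at 24 h. The other probe set of Prim2 gave -0.65 in place of -1.45 at 24 h on the log2 scale.

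Subunits of polymerase delta gave unlike early values, which for Pold1 depend on the probe set. Pold1, the catalytic subunit of polymerase delta, gave 1698, 617, 851 and 2500 against 1320, 1260, 950 and 895, while its partner Pold2 gave 1468, 1483, 1913 and 3366 against 2059, 1336, 1671 and 945. The other probe set of Pold1 gave a difference of 0.52 in place of -0.36 at 0 h, of opposite sign, and 0.37 in place of 1.03 at 4 h. Pold2 was lower in the KO-labelled array already at 4 and 8 h (-0.15 and -0.19), and so was the epsilon subunit Pole2 (-0.25 and -0.64). Pold2 and Pole2 were 3.56-fold and 2.55-fold below the WT-labelled level at 24 h.

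The sliding clamp differed least over time. Pcna, the ring that holds polymerases on DNA, gave 20694, 21892, 20031 and 25422 in the WT-labelled and 20345, 20415, 17416 and 17283 in the KO-labelled arrays. The whole span of its 8 signals was thus narrow, and the 24 h difference was 1.47-fold.

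The clamp loader, a complex of Rfc1 to Rfc5, was uneven. Rfc4 gave 1377, 660, 544 and 2540 against 2857, 1987, 1237 and 755 in the KO-labelled arrays, 3.36-fold lower at 24 h. Rfc3 was 2.78-fold lower then, with Rfc5 and Rfc1 1.99-fold and 1.82-fold lower. Rfc2 gave 1256, 1078, 895 and 1699 against 2108, 1464, 1132 and 1539, so that its 24 h signals were the closest of any member.

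Replication protein A coats unwound single strands, and its subunits also differed from each other. Rpa2 gave 1622, 1606, 1033 and 3001 against 2255, 1871, 1714 and 849, 3.53-fold lower at 24 h in the KO-labelled array. Rpa1, the large subunit, gave 11788, 5648, 3827 and 8854 against 8003, 6508, 4167 and 5261, and Rpa3 was 1.41-fold lower at 24 h. Rpa1 thus began higher in the WT-labelled array and was lower at 8 h than at 0 h in both.

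Genes that process Okazaki fragments and repair DNA held the widest 24 h gaps. Ung, the uracil-DNA glycosylase that removes uracil from new DNA, gave 701, 629, 1107 and 2183 in the WT-labelled arrays and 822, 332, 649 and 286 in the KO-labelled ones. It was lower in the latter at 4, 8 and 24 h, by 0.92, 0.77 and 2.93 on the log2 scale. Exo1, an exonuclease of mismatch repair and replication, gave 400, 132, 189 and 1006 against 903, 565, 227 and 154. Its 4 h WT-labelled signal was under the floor, and it was 6.53-fold lower in the KO-labelled array at 24 h. The KO-labelled 24 h signal of 154 was near the floor. With a floor at the 60th percentile the 24 h difference was -1.07 in place of -2.71 on the log2 scale. The flap nuclease Fen1 gave 2827, 1444, 1964 and 5354 against 5921, 4404, 4398 and 1703, higher until 8 h and 3.14-fold lower at 24 h. DNA ligase Lig1 was 2.71-fold, 2.62-fold and 1.77-fold higher at 0, 4 and 8 h and 1.64-fold lower at 24 h. The mismatch recognition gene Msh6 was lower from 4 h on, with -0.15, -0.73 and -0.81.

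Chromatin genes of the replication fork were all at least 2-fold lower at 24 h. Uhrf1, which brings the maintenance methyltransferase to new DNA, gave 1186, 377, 493 and 2676 in the WT-labelled and 2920, 2005, 1354 and 765 in the KO-labelled arrays. It was 5.32-fold higher at 4 h and 3.5-fold lower at 24 h in the latter. Chaf1b, a subunit of the histone chaperone CAF-1, was 2.75-fold higher and then 2.33-fold lower. Cdca7, a partner of the remodeller Hells, gave 1027, 954, 1724 and 2672 against 3001, 798, 1284 and 612. It was 2.92-fold higher in the KO-labelled array at 0 h but lower already at 4 and 8 h (-0.26 and -0.42), and 4.37-fold lower at 24 h.

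Enzymes of deoxynucleotide supply included the widest single gap at 4 h. Tk1, the thymidine kinase of the salvage pathway, gave 866, 112, 202 and 725 in the WT-labelled and 2166, 1173, 504 and 161 in the KO-labelled arrays. The 4 h WT-labelled signal was under the floor, so the 4 h difference of 8.27-fold is a lower bound, and at 24 h Tk1 was 4.52-fold lower. The KO-labelled 24 h signal of 161 was near the floor. With a floor at the 60th percentile the 24 h difference was -0.60 in place of -2.18 on the log2 scale. Ribonucleotide reductase makes all deoxynucleotides, and its small subunit Rrm2 gave 2942, 1073, 672 and 5295 against 6718, 5351, 3564 and 2848. Its large subunit Rrm1 gave 3604, 1459, 905 and 4866 against 6099, 4254, 2872 and 1702. At 8 h Rrm2 was 5.31-fold and Rrm1 3.17-fold higher, and at 24 h Rrm2 was 1.86-fold and Rrm1 2.86-fold lower in the KO-labelled array. Dut, which keeps dUTP out of DNA, was 2.95-fold higher at 4 h and 3.03-fold lower at 24 h. The other probe set of Dut gave 0.00 at 4 h and -0.63 at 24 h on the log2 scale. Tyms, thymidylate synthase, gave 127, 70.5, 72.1 and 246 against 355, 221, 110 and 115. It was above the floor on 3 arrays, so its values are mostly bounds, and a further probe set that lists Tyms with its pseudogene was not used.

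E2f1, the activator named for this programme, gave 169, 95.6, 171 and 351 in the WT-labelled arrays and 787, 238, 226 and 163 in the KO-labelled ones. By this probe set its widest gap came before stimulation, 4.65-fold higher at 0 h, the highest of the 44 at that time. At 24 h it was 2.15-fold lower, and its WT-labelled 4 h signal was under the floor. The KO-labelled 24 h signal of 163 and the WT-labelled signals of 169 and 171 at 0 and 8 h were near the floor. With log2 of signal plus floor the 24 h difference was -0.69 in place of -1.11 on the log2 scale. The other probe set of E2f1 gave 1.18 at 0 h and -1.27 at 24 h on the log2 scale. The rank at 0 h and the time of the widest gap thus depend on the probe set.

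**Figure D3:**
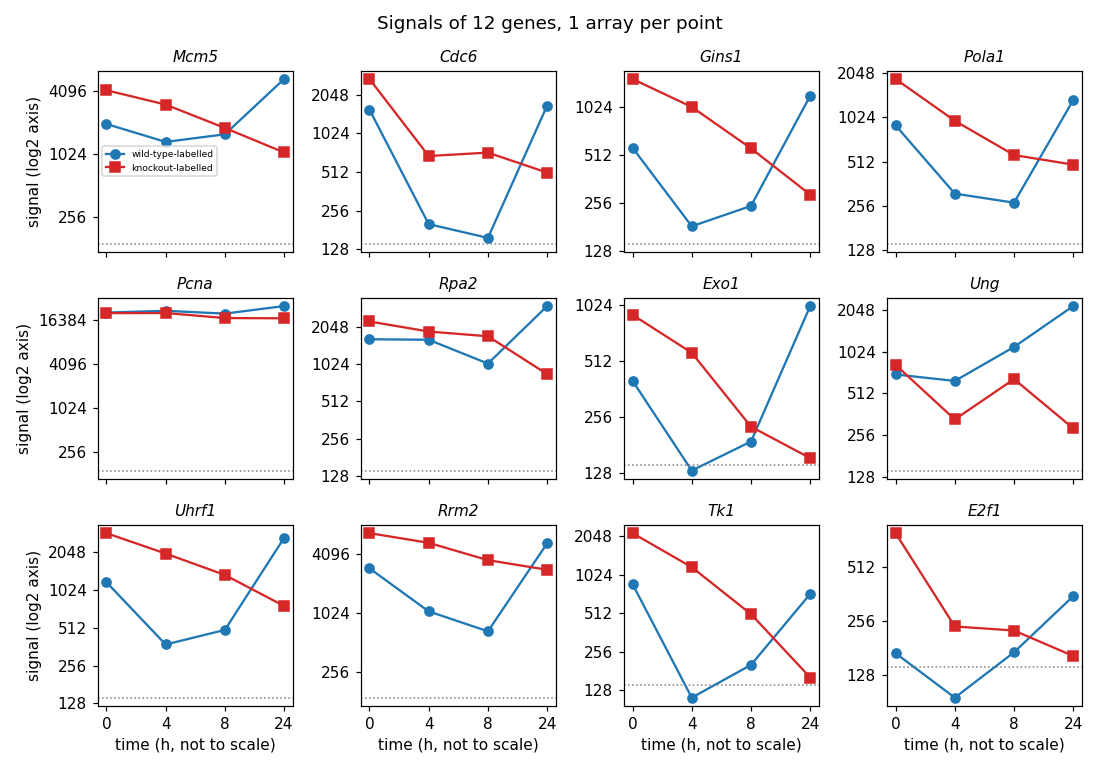
Signal of 12 genes on a log2 axis against time (0, 4, 8 and 24 h, evenly spaced), 1 array per point; blue circles are WT-labelled, red squares KO-labelled, and the dotted line is the floor of 141.88. The lines cross between 8 and 24 h in every panel except Ung, where red is lower from 4 h on, and Pcna, where red is lower throughout.

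Further probe sets bear on single values. For the 21 members with more than 1 probe set above the floor, all probe sets gave the same sign at 24 h, and over all 73 member probe sets 73 were lower in the KO-labelled array. The median SD between probe sets of a gene at 24 h was 0.15, and the widest was 0.78 for Mcm3, whose 5 probe sets ran from -1.96 to -0.02. At 8 h the sign was shared by all probe sets in 16 of the 21. Probe sets of Mcm3, Mcm7, Pold1, Fen1 and Rrm2 are of types that can also bind other transcripts.

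The difference in response, which is the change from 0 h in the KO-labelled minus that in the WT-labelled array, collects this. At 24 h 29 of the 44 members were at least 4-fold lower by this measure and 0 at least 4-fold higher, against 2.55% and 3.62% of all genes. At 4 and 8 h 0 members passed in either direction, where 0.261% and 0.664% of all genes passed as lower and 0.866% and 1.78% as higher. The widest at 24 h were Exo1 (-3.88), Cdca7 (-3.67), Tk1 (-3.50), Gins1 (-3.49) and Mcm5 (-3.40), and the narrowest Rpa1 (-0.19) and Pcna (-0.53). For Exo1 and Tk1 the KO-labelled 24 h signals, 154 and 161, were near the floor. With 1 array per cell of the design no test of this difference was possible.

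Stimulation was tested on the change common to both genotypes, with limma and Benjamini-Hochberg adjustment over 15062 probe sets. No member passed an adjusted p under 0.05 with a 2-fold change at 4, 8 or 24 h against 0 h or at 24 h against 8 h. At an unadjusted p under 0.05 0 were higher and 3, 7 and 0 lower against 0 h, and 2 were higher at 24 h against 8 h. At that unadjusted rule 8.85%, 12.9% and 14.2% of all genes were lower and 5.52%, 7.3% and 7.67% higher against 0 h, and 4.44% were higher at 24 h against 8 h, so the members' counts were near these shares or under them. Against 0 h, 0.807%, 1.19% and 1.49% of all genes passed as higher at 4, 8 and 24 h, and 0.605%, 1.23% and 2.47% as lower. Between 8 and 24 h 0.0% passed in either direction. The nearest was Rpa1 at 8 h, with -1.28 (SE 0.29, limma adjusted p = 0.0856, lower in both genotypes). Cdc6 had -2.61 (SE 0.87, limma adjusted p = 0.171) at 8 h, lower in both as well. Members' median changes were -0.74, -0.91 and -0.28 at 4, 8 and 24 h. With 1 array per genotype and time, the residual of this test is the difference in time course between the genotypes. At 24 h against 0 h the members' medians were 0.86 in the WT-labelled and -1.41 in the KO-labelled arrays, which enters their standard errors. A lack of calls is thus not a lack of change within either genotype. Without the WT-labelled 24 h array the 24 h level rests on the KO-labelled array alone, which is assumed to vary like the other groups, and in that fit 15 members passed as lower at 24 h against 0 h (limma adjusted p = 0.0232 to 0.0491, 4.91% of all genes), namely Cdc6, Mcm3, Mcm4, Mcm5, Mcm6, Mcm7, Mcm10, Gins1, Pola1, Pole, Rfc4, Fen1, Uhrf1, Rrm1 and Tk1. Their change is that of the KO-labelled arrays, since the members' median at 24 h was 0.86 above 0 h in the WT-labelled ones. Without that array 5 passed as lower at 8 h, and without the KO-labelled 24 h array 7 did (2.68% and 2.88% of all genes), among them Cdc6, Rpa1, Lig1 and Rrm1 each time.

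Other genes of the pathway, from lists chosen by function, were in part lower at 24 h too. Of 29 other replication factors tested, 12 were at least 2-fold lower in the KO-labelled 24 h array and 1 at least 2-fold higher, with a median of -0.86. Of all genes 5.05% were lower and 9.15% higher by that much. The fork protector Timeless gave 976, 585, 838 and 1184 against 1955, 909, 758 and 239, and Hells 1134, 473, 596 and 3927 against 2553, 1281, 1439 and 977. The licensing inhibitor Gmnn was 1.92 higher at 4 h and 1.52 lower at 24 h on the log2 scale. A list of 28 other genes of nucleotide synthesis includes the purine and pyrimidine pathways and the folate enzymes that feed them. Of these 28, 12 were at least 2-fold lower and 0 higher at 24 h (5.05% and 9.15% of all genes). Their median was -0.94. Unlike the members, this list was also lower in the KO-labelled arrays at 4 and 8 h, with medians of -0.42 and -0.60, and in the WT-labelled arrays its median against 0 h was 0.08, 0.59 and 0.91. Shmt2, the mitochondrial serine hydroxymethyltransferase, gave 1985, 9006, 13738 and 9149 against 3093, 6330, 8773 and 2102. In the limma test 0 of the 29 passed at 4, 8 or 24 h against 0 h, and of the 28 1 passed as higher at 4 h and 1 at 8 h. Of all genes 0.807%, 1.19% and 1.49% passed as higher at 4, 8 and 24 h, and 0.605%, 1.23% and 2.47% as lower.

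Mitosis genes act after replication. Of 20 tested, 13, 20 and 20 were at least 2-fold higher in the KO-labelled arrays at 0, 4 and 8 h. Of all genes 8.0%, 11.7% and 10.7% were higher by that much. At 24 h 5 of the 20 mitosis genes were at least 2-fold lower and 0 higher by as much (5.05% and 9.15% of all genes). Their medians were 1.05, 2.45, 1.90 and -0.74, beside 0.75, 0.98, 0.51 and -1.50 for the replication members. Against 0 h the WT-labelled 24 h median was -0.65 for mitosis genes and 0.86 for the members. The difference between these lists was not tested. Over the same arrays the medians of granulocyte precursor markers were 3.40, 4.34, 4.34 and 1.35, and those of T cell markers -1.68, -1.64, -1.53 and -0.24. The part of these cells in the members' differences was not tested.

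**Figure D4:**
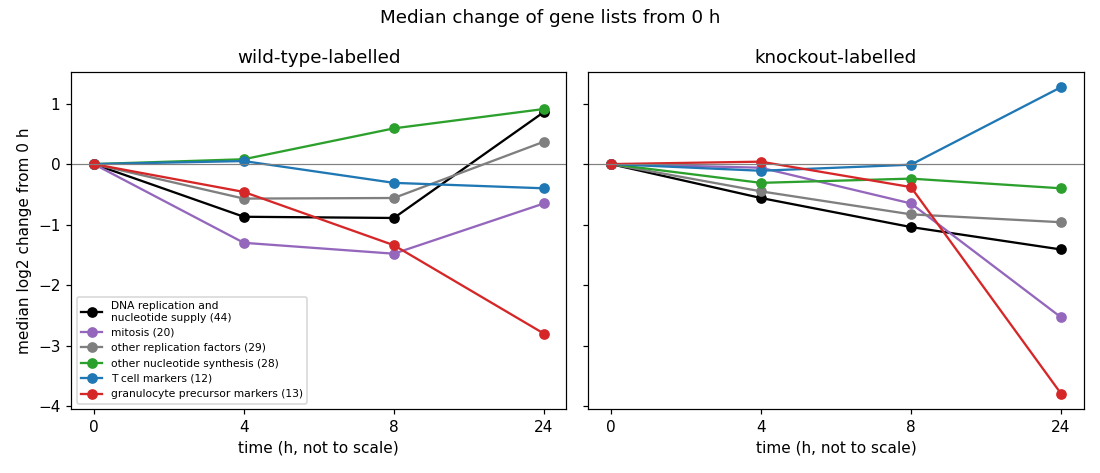
Median log2 change from 0 h of 6 gene lists (number of genes tested in brackets) in the WT-labelled (left) and KO-labelled (right) arrays at 0, 4, 8 and 24 h, evenly spaced. At 24 h the replication members stand at 0.86 on the left and -1.41 on the right, and T cell markers at -0.40 and 1.27.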

How the data were processed

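RNA of 8 samples, 1 for each of 2 genotypes at 4 times, was hybridised to Affymetrix MOE430A_2.0 arrays. The deposited values are signal intensity on a linear scale, made by the authors with GCOS 1.4 and MAS5, per the submitters' processing notes; settings of these programs were not stated in the labels. The 2% trimmed mean of each array was about equal (1000.4 to 1000.5), so levels are relative to each array's total. All per-sample columns were used. Signals under 141.88, the median over arrays of the 40th percentile, were set to this floor before log2. A difference against a floored value is a lower bound. Testing kept 15062 of 22690 probe sets (64 were controls), those exceeding the floor on 2 or more arrays. A single symbol was listed for 20380 probe sets, more than 1 for 691 and no symbol for 1555.

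Genotypes were compared by size (2-fold, or 4-fold for the response). Stimulation was tested with limma 3.58.1 in R 4.3.3, modelling time plus genotype, a variance trend, and 3 residual and a median of 3.88 prior degrees of freedom. Its p-values measure only the spread between these samples, whose number limits the precision. Only the limma step was run on simulated data, in which both genotypes had the same change and no other difference. That run does not show how the test performs where the courses of the genotypes differ. The members and lists were chosen with earlier results of these data known. Genes are named by role and by the size of the genotype difference. Alternatives were other scalings, floors, folds, probe set rules and models, and leaving out each array. Figures used matplotlib 3.10.9 under python 3.11.15.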

Additional observations from a re-analysis of the deposited data

Results flagged for a closer look

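Between 8 and 24 h the members' median had opposite signs in the arrays of the 2 genotypes, a difference that was not tested because each genotype has 1 array per time. This median was 1.72 on the log2 scale in the WT-labelled and -0.47 in the KO-labelled arrays. All 44 were higher at 24 h in the former, and in the latter 30 were lower and 13 higher, so part of them went the same way in both. For 4 members, 9.09% of the 44 against 0.534% of all genes, the signal was at least 2-fold higher in the former and at least 2-fold lower in the latter. These were the helicase starter Mcm10 (2.33 and -1.41), the single-strand binding subunit Rpa2 (1.54 and -1.01), the flap nuclease Fen1 (1.45 and -1.37) and thymidine kinase Tk1 (1.84 and -1.65).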

How the results depend on the processing

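At 24 h all measured members were lower in the KO-labelled array under quantile normalization, division by array medians, floors at the 20th and 60th percentile (41 members tested at the latter), log2 of signal plus floor, and the median over probe sets, with medians of -1.77 to -1.31. None of the members that differed at least 2-fold at 0, 4, 8 or 24 h changed sign under these 6. Division by array medians moved the median of all genes at 24 h from 0.00 to -0.19 (and to -0.11 and -0.16 at 4 and 8 h), and relative to it the members stood at -1.58. The number at least 2-fold higher at 8 h went from 15 to 6 with the floor at the 60th percentile and to 9 with log2 of signal plus floor. At 3-fold in place of 2-fold the counts were 1, 11 and 4 higher at 0, 4 and 8 h and 20 lower at 24 h, and at 1.5-fold 30 were higher at 0 h. At 8-fold 10 members met the rule for the response. Shares of all genes at these other floors and folds are not given here, so these counts are not set against a background. In limma 0 members passed in any comparison under other scalings, floors, folds, no filter, no variance trend, or with no replicate block (genotype left out). Leaving out each array gave 0 to 15 members at 24 h against 0 h and 0 to 7 at 8 h against 0 h, and 0 in the other comparisons. The 15 come from a fit in which the 24 h time has the KO-labelled array alone. The array limits are the 5 members with a signal under the floor, namely Orc1, Exo1, Tk1, Tyms and E2f1.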

Other observations

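Genes upstream of the replication programme were split. Of 14 cyclins, kinases and inhibitors of the G1 to S transition, 7 were at least 2-fold higher in the KO-labelled array at 4 h. By as much 0 were lower then, where 11.7% of all genes were higher and 6.56% lower. At 24 h 2 were higher and 4 lower by as much (9.15% and 5.05% of all genes). Cyclin E2 (Ccne2) gave 458, 178, 142 and 1147 at 0, 4, 8 and 24 h in the WT-labelled and 1581, 1006, 573 and 433 in the KO-labelled arrays. Cdkn1a, the inhibitor of cyclin-dependent kinases also called p21, gave 161, 1262, 2190 and 3113 against 292, 5824, 3664 and 14590. It was higher in the KO-labelled array at all 4 times, by 2.23 on the log2 scale at 24 h.

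Among 9 other E2F and pocket protein genes tested, 2 were at least 2-fold lower and 1 at least 2-fold higher at 24 h. Of all genes 5.05% were lower and 9.15% higher by that much. The repressor E2f8 gave 426, 236, 19.8 and 386 against 1850, 1168, 624 and 93.9, with the WT-labelled 8 h and KO-labelled 24 h values under the floor, and E2f6 was 1.63 lower on the log2 scale at 24 h. The pocket protein Rbl2, which holds E2F targets silent in resting cells, gave 2523, 1031, 788 and 832 in the WT-labelled and 2094, 1070, 778 and 2468 in the KO-labelled arrays. Its difference was -0.27, 0.05 and -0.02 at 0, 4 and 8 h, and its level was 1.57 higher on the log2 scale in the KO-labelled array at 24 h.

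The 14 members with the E2F letters in a listed promoter had a median 24 h difference of -1.60 (range -2.33 to -0.71), and the 24 without them -1.20 (-2.93 to -0.49). The ranges overlap, and no test was made.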
